A study of Mus musculus with 9 samples.

Results

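The central apparatus genes examined here are 10 genes, Hydin, Spef1, Spef2, Spag6l, Spag16, Spag17, Cfap46, Cfap54, Cfap69 and Cfap74, chosen by name for the place of their proteins in the axoneme, at a time when earlier results of these data were known. All 10 were found among the 23074 genes of the count table, and all 10 passed the filter on low counts. Their mRNA levels were measured by RNA-seq in decapsulated whole testes of 9 male mice at postnatal days 29 to 30, 5 of them wild type and 4 Rfx2-/-. Each mouse gave 1 library. Both genotypes came from a mixed background of C57BL/6, 129/Sv and FVB/N. The Rfx2-/- mice lack an exon that encodes much of the DNA-binding domain of RFX2, a transcription factor of the RFX family. That exon was removed in the whole animal with an ACTB-cre transgene, so the loss is not limited to germ cells, and per the study's methods the mixed background line kept its neomycin cassette. The comparison asked which of these mRNAs depended on RFX2.

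The central apparatus stands at the core of motile axonemes. It consists of a pair of single microtubules, C1 and C2, which carry a set of protein projections. Signals pass from these projections through the radial spokes to the dynein arms and shape the beat of the sperm flagellum. In the mouse testis the axoneme is built by round and elongating spermatids. RFX factors bind the X-box, an inverted repeat found in the promoters of many ciliary genes.

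Promoters were examined first, because the study defined RFX2 target genes by peaks there, although most of its peaks lay elsewhere in the genome. Of the 10 genes, 9 were on the study's list of 977 genes with an RFX2 peak in the promoter, taken by chromatin immunoprecipitation from germ cells of younger wild type mice. Of the 15613 genes tested for expression, 6.1% were on that list. Spef1 was the gene without a peak. Cfap74 counted through a second gene ID that RefSeq treats as the same gene. RefSeq promoter windows of 300 bases (GRCm38.p6, 250 bases before and 50 after the start site) were matched by symbol for 9 genes (not for Cfap54), with 2 windows for Cfap74. An X-box-like inverted repeat, GTNNC and GNNAC separated by 4 bases, was searched together with the single arm GTTGCC or its complement GGCAAC. The inverted repeat reads the same way on both strands, and the single arm can lie inside it. It was present in the windows of Hydin, Spag16 and Spag6l, or 3 of 9 genes, against 7.17% of all 32851 windows. The single arm was present in 6 of the 9 genes, these 3 and Spef2, Cfap46 and Cfap74, against 12.5% of all windows. No match says only that these letters are not in the window. The promoter regions of the study reached further upstream than these windows, and by its supplementary methods further downstream as well. A peak can therefore lie outside the bases searched.

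The windows below are those of the 3 genes whose mRNA fell most and of the 3 genes that held the inverted repeat. Capitals mark the inverted repeat and the single arm, and sequences run 5′ to 3′ on the strand of the gene. The windows lay at chr15:9748819-9749118, minus strand (Spef2), chr7:139683766-139684065, minus strand (Cfap46), chr3:99885167-99885466, plus strand (Spag17), chr8:110266727-110267026, plus strand (Hydin), chr1:69826720-69827019, plus strand (Spag16) and chr16:16829314-16829613, minus strand (Spag6l).
Spef2: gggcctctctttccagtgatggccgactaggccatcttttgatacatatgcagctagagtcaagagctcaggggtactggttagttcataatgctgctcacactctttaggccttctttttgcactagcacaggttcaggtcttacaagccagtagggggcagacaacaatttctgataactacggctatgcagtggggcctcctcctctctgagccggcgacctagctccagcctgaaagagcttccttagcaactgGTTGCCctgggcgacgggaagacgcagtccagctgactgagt
Cfap46: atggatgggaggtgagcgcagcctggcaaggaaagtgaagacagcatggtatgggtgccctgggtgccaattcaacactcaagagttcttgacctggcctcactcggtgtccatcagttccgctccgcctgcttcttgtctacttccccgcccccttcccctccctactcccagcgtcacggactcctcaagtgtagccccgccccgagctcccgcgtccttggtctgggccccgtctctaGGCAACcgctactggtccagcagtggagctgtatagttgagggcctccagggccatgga
Spag17: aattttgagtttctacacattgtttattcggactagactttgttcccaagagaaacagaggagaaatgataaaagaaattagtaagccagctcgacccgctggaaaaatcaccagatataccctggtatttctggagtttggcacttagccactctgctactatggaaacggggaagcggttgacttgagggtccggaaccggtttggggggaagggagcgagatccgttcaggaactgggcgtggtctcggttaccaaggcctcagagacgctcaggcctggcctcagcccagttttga
Hydin: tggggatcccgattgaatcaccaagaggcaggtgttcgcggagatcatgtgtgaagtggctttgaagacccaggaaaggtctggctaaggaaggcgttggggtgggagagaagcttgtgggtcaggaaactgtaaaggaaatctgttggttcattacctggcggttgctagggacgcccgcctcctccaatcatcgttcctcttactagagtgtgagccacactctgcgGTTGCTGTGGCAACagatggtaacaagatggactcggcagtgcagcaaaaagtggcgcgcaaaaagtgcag
Spag16: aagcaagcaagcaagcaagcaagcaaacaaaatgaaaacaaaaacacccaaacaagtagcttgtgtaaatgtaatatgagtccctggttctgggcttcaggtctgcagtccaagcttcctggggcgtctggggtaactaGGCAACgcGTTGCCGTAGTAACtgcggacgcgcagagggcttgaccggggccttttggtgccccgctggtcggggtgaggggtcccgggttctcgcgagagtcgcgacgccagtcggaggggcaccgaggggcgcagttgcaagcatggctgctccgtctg
Spag6l: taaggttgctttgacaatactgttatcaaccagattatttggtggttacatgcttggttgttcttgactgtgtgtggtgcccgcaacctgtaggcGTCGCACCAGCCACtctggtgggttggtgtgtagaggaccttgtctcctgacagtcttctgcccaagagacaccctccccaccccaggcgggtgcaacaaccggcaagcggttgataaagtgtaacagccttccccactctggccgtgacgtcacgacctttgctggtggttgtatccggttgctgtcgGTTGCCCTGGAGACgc

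In Spef2 and Cfap46 the single arm was centred 11 bases after and 6 bases before the start site. The repeat of Hydin, GTTGCTGTGGCAAC, was centred 14 bases before the start, and that of Spag16, GTTGCCGTAGTAAC, 96 bases before it. Spag6l held 2 repeats, GTCGCACCAGCCAC and GTTGCCCTGGAGAC. The Spag17 window held neither motif. Only arms 4 bases apart were searched, so the same arms at another spacing were not counted as a repeat. At this spacing, the 3 of the 10 genes with the inverted repeat were not among those called lower below. The 3 genes with the largest fall did not hold it at this spacing. Windows of further central apparatus genes are described with their list below. Of the 9 genes with a peak, 4 were called lower, against 3.68% of all genes tested. The share among all genes on the peak list was not computed.

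The targeted gene and the make-up of the libraries were examined before the members. CPM is the read count scaled to the library total after TMM scaling, a correction for library composition. Rfx2 mRNA stood at 26.6% of its wild type mean in the knockout, with 471 to 624 CPM in wild type and 61.5 to 199 CPM in Rfx2-/- libraries. Its fitted log2 change was -1.91 (SE 0.28, edgeR adjusted p 7.81e-04). The libraries held 13574764 to 15193330 counts, apart from 28800855 in Rfx2-/- replicate 1. Rfx2-/- replicate 2 stood apart from the other knockout libraries. Its genes with under 2 kb of exons lay 0.61 above them in median log2 CPM, and its genes over 8 kb lay -0.93 from them. The summed level of 7 epididymal markers was 242 CPM in that library, of which Crisp1 gave 225 CPM, and 0.95 to 6.12 CPM in the other 8 libraries. Lcn8, Lcn9 and Rnase10 of that list were at 0 there. The part of these features in the results was not tested, and changes below were also fitted without it.

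The median log2 fold change was 0.60 for 9 meiotic spermatocyte markers and 0.21 for 9 round spermatid markers, and without Rfx2-/- replicate 2 these medians were 0.25 and 0.097. It was -0.77 for 9 elongating spermatid markers, of which 5 were lower at an adjusted p of 0.05 in edgeR, against 7.31% of all genes tested. Without that library the median of these markers was -0.87, with 7 lower. Summed elongating markers ranged from 8448 to 17981 CPM in wild type and from 6689 to 10724 CPM in Rfx2-/- libraries. The study's histology at this age described an arrest of Rfx2-/- spermatids before they elongate, and its electron microscopy found no developing axonemes. From RNA of whole testes alone, fewer cells of a type and less RNA per cell cannot be told apart. Medians of Sertoli cell, Leydig cell and macrophage markers were 0.20, 0.19 and 0.21, and 0.19, -0.13 and 0.14 without replicate 2. The part of the cell mixture in the results below was not tested.

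Transcripts of the central apparatus fell to very different degrees in Rfx2-/- testes. Spef2, Cfap46 and Spag17 fell to 3%, 9.73% and 17.5% of their wild type levels, Cfap54 fell to 42.5%, and Hydin, Cfap74, Spag16, Spag6l, Cfap69 and Spef1 were not called. A gene was called when its change exceeded 2-fold with an adjusted p at or under 0.01 in edgeR. By this rule 4 of the 10 genes were lower, against 3.68% of all genes tested. None was higher (0 in edgeR, 0 in DESeq2 and 0 at an unadjusted p of 0.05), against 0.826% of all genes. At an adjusted p of 0.05 with no fold limit the counts in edgeR were again 4 lower and 0 higher, against 7.31% and 3.48%. Every knockout library was below every wild type library in 5 of the 10 genes, the 4 called genes and Hydin, against 9.7% of all genes. The opposite was seen in 0 of 10 genes, against 6.16%. The median log2 fold change of the 10 genes was -0.74, against 0.03 for all genes tested. Without Rfx2-/- replicate 2 the median was -0.43, Spef2, Cfap46 and Spag17 remained called, and 5 genes were lower at an adjusted p of 0.05 in edgeR.

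**Figure D1:**
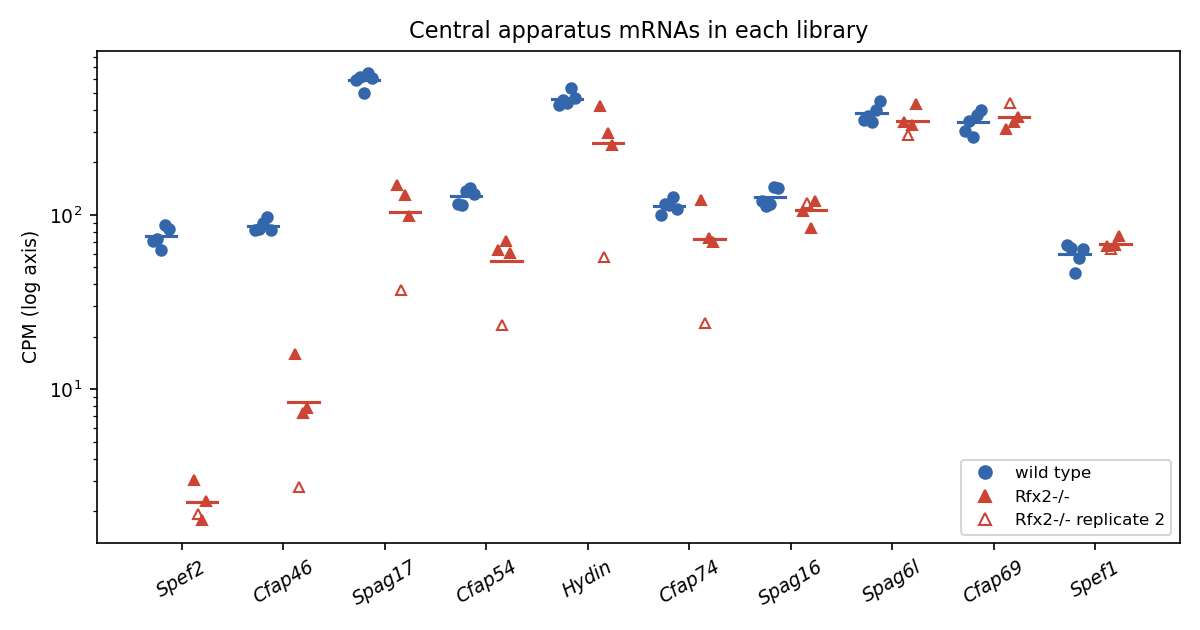
Level of each central apparatus mRNA, in CPM on a log axis, in 5 wild type libraries (circles) and 4 Rfx2-/- libraries (triangles, replicate 2 open), with group means as lines. The knockout points of Spef2, Cfap46, Spag17, Cfap54 and Hydin lie below all wild type points, and those of Spag6l, Cfap69 and Spef1 overlap them.

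Spef2 fell furthest. Its protein lies in the C1b projection and is required for sperm flagella. The gene (chromosome 15, 9578193 to 9748868, minus strand, 41 exons) had 70.7, 72.6, 63.2, 86.9 and 83.0 CPM in wild type replicates 1 to 5 and 3.02, 1.94, 1.77 and 2.29 CPM in Rfx2-/- replicates 1 to 4. The lowest wild type library was far above the highest knockout library. The knockout values came from 91, 29, 26 and 35 reads and were well above the floor of 3 reads per library. The means were 75.3 ± 9.62 CPM (SD, n = 5) and 2.26 ± 0.55 CPM (SD, n = 4), so that 3% of the wild type level was left. The log2 fold change was -5.03 (SE 0.20, edgeR adjusted p 1.38e-08), and it was -4.94 without replicate 2. Over 16 alternatives it ranged from -5.19 to -4.85. Spef2 had the smallest spread between knockout libraries among the called genes, with a coefficient of variation of 24.6%.

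Cfap46 was next. CFAP46 is a large protein of the C1d projection. The gene (chromosome 7, 139600951 to 139683817, minus strand, 59 exons) had 81.5, 82.9, 90.3, 97.6 and 81.6 CPM in wild type libraries. In Rfx2-/- libraries it had 15.9, 2.74, 7.36 and 7.79 CPM. The groups did not overlap, and the knockout libraries were spread widely, with replicate 1 highest and replicate 2 lowest. The means were 86.8 ± 7.08 and 8.44 ± 5.46 CPM, or 9.73% of wild type. The log2 fold change was -3.33 (SE 0.37, edgeR adjusted p 8.25e-05) and -3.03 (SE 0.23) without replicate 2.

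Spag17 was the most abundant of the called genes. SPAG17 organises the C1a projection and binds SPAG6. The gene (chromosome 3, 99885406 to 100143322, plus strand, 49 exons) had 589, 614, 501, 648 and 605 CPM in wild type libraries and 148, 36.9, 130 and 98.9 CPM in Rfx2-/- libraries. The highest knockout library remained far below the lowest wild type library. The means were 591 ± 55.1 and 103 ± 48.7 CPM, or 17.5% of wild type. The log2 fold change was -2.51 (SE 0.33, edgeR adjusted p 2.85e-04) and -2.23 (SE 0.15) without replicate 2. Its exons overlap those of Wdr3 and of a noncoding gene on the opposite strand over 7.95% of their length. Whether counting used strand is not stated, and reads of the overlap could not be assigned here.

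Cfap54, another C1d gene, fell by less. It had 116, 114, 137, 142 and 132 CPM in wild type libraries and 63.1, 23.3, 70.7 and 60.6 CPM in Rfx2-/- libraries. The groups did not overlap, and replicate 2 was lowest. The means were 128 ± 12.5 and 54.4 ± 21.2 CPM, and the log2 fold change was -1.23 (SE 0.26, edgeR adjusted p 0.00958). This call was fragile. Without replicate 2 the log2 fold change was -0.98 (SE 0.11, adjusted p 4.72e-05), just short of 2-fold with a much smaller error. The call was lost in 12 of 16 alternatives. In the alternatives that tested against no change, its adjusted p lay between 2.58e-05 and 0.0329 (edgeR or DESeq2). Only the test against 2-fold (glmTreat), which asks another question, gave a larger value.

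Hydin and Cfap74 were lower on average but were not called. HYDIN is a giant protein of the C2 projections, and its loss causes hydrocephalus in mice. Hydin (chromosome 8, 110266977 to 110610253, plus strand, 87 exons) had 426, 455, 435, 529 and 467 CPM in wild type libraries and 420, 57.4, 296 and 251 CPM in Rfx2-/- libraries. Each knockout value was below each wild type value, although replicate 1 was close to them and replicate 2 far below. The log2 fold change was -0.85 (SE 0.40, edgeR adjusted p 0.186). Without replicate 2 it was -0.52 (SE 0.16, adjusted p 0.0396), a smaller change with a smaller error. Across the alternatives that tested against no change, its adjusted p lay between 0.00721 and 0.296 (edgeR or DESeq2).

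Cfap74, the third C1d gene, had 99.6, 116, 113, 126 and 107 CPM in wild type libraries and 122, 23.9, 73.8 and 69.7 CPM in Rfx2-/- libraries. Knockout replicate 1 lay inside the wild type range and the other 3 below it. The log2 fold change was -0.64 (SE 0.33, edgeR adjusted p 0.23). It was -0.34 without replicate 2 (edgeR adjusted p 0.199) and -0.98 without replicate 1 (edgeR adjusted p 0.0415), so that either library decided its size. Over the alternatives that tested against no change, its adjusted p lay between 0.0415 and 0.354 (edgeR or DESeq2). The second gene ID for Cfap74, ENSMUSG00000042233, had 148, 30.3, 89.0 and 85.4 CPM in the knockout libraries with a fitted change of -0.49 on the log2 scale (edgeR adjusted p 0.343). Both rows followed the same order of knockout libraries.

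**Figure D2:**
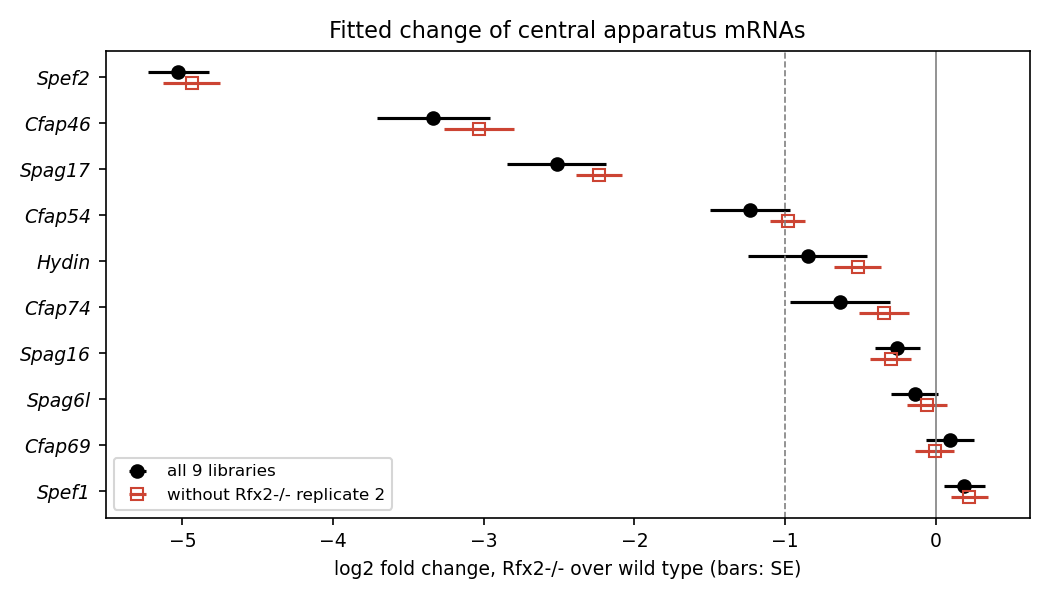
Fitted log2 fold change (Rfx2-/- over wild type) with its SE for the 10 genes, in all 9 libraries (filled circles) and without Rfx2-/- replicate 2 (open squares). The dashed line marks 2-fold lower. Spef2, Cfap46 and Spag17 lie beyond it in both fits, and Cfap54 moves from -1.23 to -0.98.

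Spag16, Spag6l, Cfap69 and Spef1 did not pass the test. Spag16, a WD repeat protein linked to the bridge between C1 and C2, had 112 to 145 CPM in wild type and 84.4 to 120 CPM in Rfx2-/- libraries, and a fitted log2 change of -0.26 (SE 0.15, adjusted p 0.285 in edgeR). Spag6l, the armadillo repeat protein of C1, ranged from 341 to 450 CPM and from 287 to 432 CPM, with a log2 fold change of -0.14 (SE 0.16). Cfap69, a C1b protein of sperm flagella, ranged from 279 to 400.0 CPM and from 311 to 437 CPM, with a log2 fold change of 0.09 (SE 0.16) that was -0.01 without replicate 2. Spef1, which bundles microtubules and is needed to form the central pair, ranged from 46.7 to 67.0 CPM and from 63.6 to 75.2 CPM, with a log2 fold change of 0.19 (SE 0.14). The knockout libraries of these 4 genes varied by 7.37% to 17.7%, compared with 24.6% to 64.7% for the other 6. The exons of Spef1 overlap those of neighbouring genes, Cenpb among them, over 13.4% of their length, so its level is less certain.

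On a scale of CPM per kb of exon, the order in wild type testes was Spag6l (158), Spag17 (75.2), Cfap69 (63.8), Hydin (29.3), Spag16 (27.0), Spef1 (21.7), Cfap74 (15.5), Cfap54 (12.4), Cfap46 (10.5) and Spef2 (7.59). Hydin and Spag16 were neighbours that differed by less than the larger SD of the pair. In Rfx2-/- testes Spag6l (143) and Cfap69 (68.0) led, Spef1 was at 24.8, and Spag17 had dropped to 13.2, Cfap46 to 1.03 and Spef2 to 0.227.

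Exon length and the unusual library were seen together in these genes. In Rfx2-/- replicate 2, Hydin (15.8 kb of exons) was -2.45 from the mean log2 CPM of the other knockout libraries, Cfap74 (7.24 kb) -1.83, Cfap46 (8.23 kb) -1.78, Spag17 (7.86 kb) -1.74 and Cfap54 (10.3 kb) -1.47. These deviations were larger than the median of -0.93 for all genes over 8 kb in that library. Spef2 (9.92 kb), however, was at -0.24, and the 4 genes of 2.42 to 5.33 kb lay between -0.34 and 0.37. Rfx2-/- replicate 1 deviated the other way, with 1.53 for Cfap46, 1.37 for Hydin and 1.29 for Cfap74. These values were taken from a mean that includes the low replicate 2, which makes them larger. For all genes over 8 kb, measured in the same way, the medians were 0.53, 0.38 and 0.013 in replicates 1, 3 and 4.

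**Figure D3:**
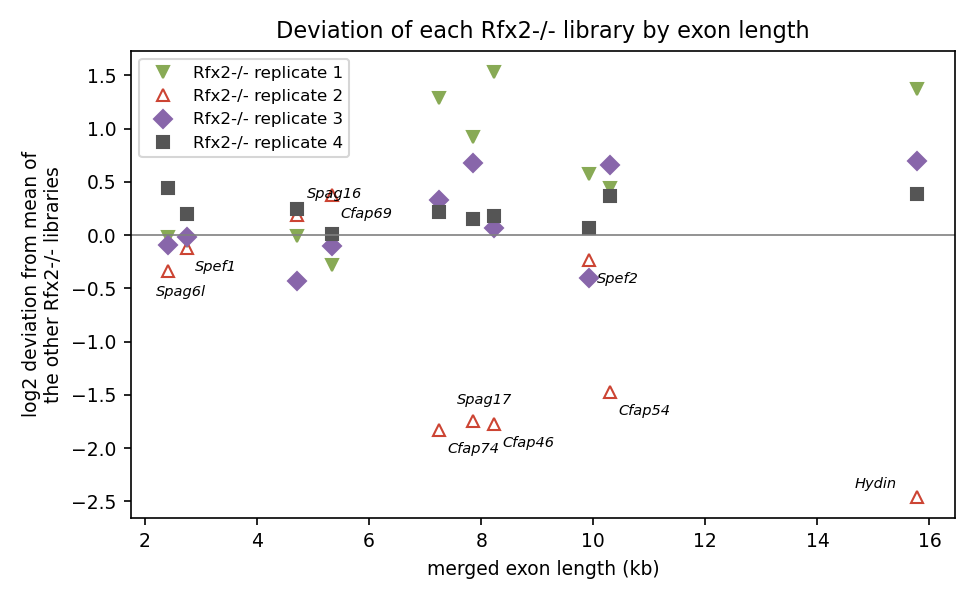
Deviation of each Rfx2-/- library from the mean log2 CPM of the other knockout libraries, against merged exon length in kb, for the 10 genes (labels stand by replicate 2). In replicate 2, Hydin, Cfap74, Cfap46, Spag17 and Cfap54 lie between -2.45 and -1.47, while Spef2 at 9.92 kb lies at -0.24.

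Within one library, the ratio of 2 mRNAs does not depend on the scaling of that library. Log2 ratios of counts are given for 5 pairs of genes whose proteins share a projection or bind each other. The pairs were formed after the fold changes were known, so the ratios are a description with no test, and 3 of them are made from the same 3 C1d genes. Cfap46 over Cfap74 was -0.37 ± 0.07 in wild type (SD, n = 5) and -3.14 ± 0.16 in Rfx2-/- libraries (SD, n = 4), so that both groups were tight although the level of each gene varied widely in the knockout. Spef2 over Cfap69 went from -2.17 ± 0.08 to -7.35 ± 0.49. Spag17 over Spag6l went from 0.63 ± 0.14 to -1.90 ± 0.81, with knockout libraries between -2.96 and -1.20. Cfap46 over Cfap54 went from -0.56 ± 0.09 to -2.83 ± 0.57. Cfap54 over Cfap74 changed least, from 0.19 ± 0.13 to -0.31 ± 0.43. In this last pair the groups were nearly adjacent, with a lowest wild type ratio of -0.02 and a highest knockout ratio of -0.04. Without replicate 2 the knockout means of the pairs, in the order given, were -3.14, -7.19, -1.55, -2.74 and -0.40. In each pair, every knockout ratio was below every wild type ratio. The gene with the larger fall was put on top in each pair, so this direction follows from that choice. A ratio of genes of unlike exon length, such as Spag17 (7.86 kb) and Spag6l (2.42 kb), can still carry a length difference between libraries.

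**Figure D4:**
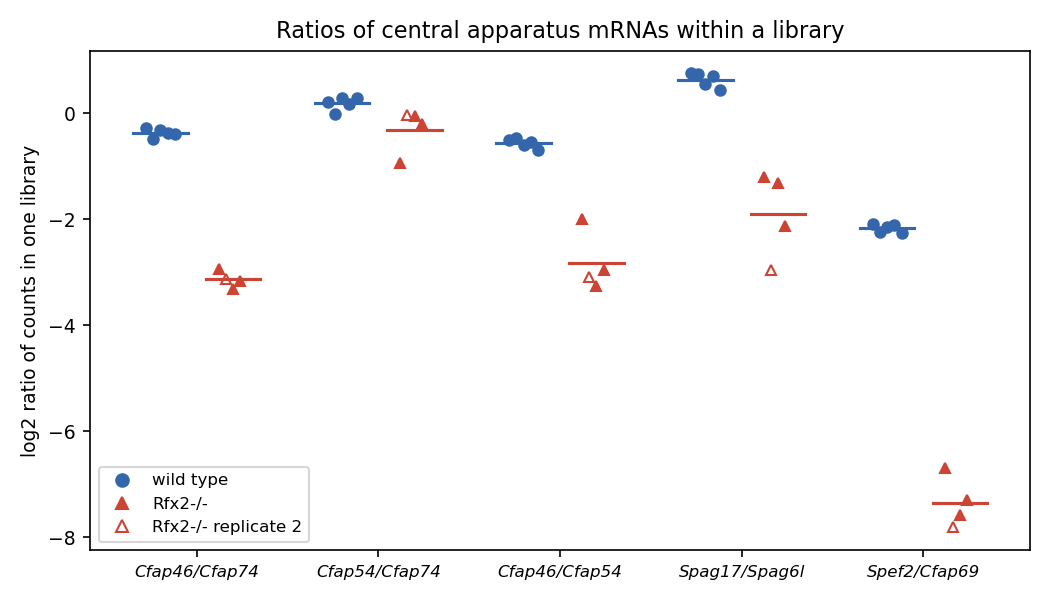
Log2 ratio of read counts of 2 genes within a library, for 5 wild type (circles) and 4 Rfx2-/- libraries (triangles, replicate 2 open), with group means as lines. The ratio of Cfap46 to Cfap74 is near -0.37 in each wild type library and near -3.14 in each knockout library.

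Other genes of the central apparatus and its neighbours were taken from lists. Of 10 further central apparatus genes, 2 were called lower in edgeR, against 3.68% of all genes tested. They were Cfap70 at -2.71 on the log2 scale (SE 0.15, edgeR adjusted p 1.40e-07) and Adgb with -1.92 (SE 0.33, edgeR adjusted p 0.00227). CFAP70 is a C2 protein with TPR repeats, and ADGB is androglobin, a large protein with a globin domain. Cfap70 fell from 283 ± 28.3 to 43.3 ± 4.41 CPM, and Adgb from 128 ± 25.2 to 33.8 ± 15.3 CPM. Mycbpap passed at an adjusted p of 0.05 without reaching 2-fold (log2 fold change -0.78, edgeR adjusted p 0.0285), but lost that pass in 6 of 9 fits that left out 1 library, namely wild type replicate 1, 2, 4 or 5 or Rfx2-/- replicate 3 or 4. Its adjusted p in those 9 fits lay between 0.00817 and 0.0773. Cfap65 (-0.51), Kif9, a kinesin of C2 (-0.42), Stk36 (-0.42), Cfap47 (-0.42), Cfap221, a C1d protein (-0.23) and Spag6 (-0.03) did not pass that limit. Without Rfx2-/- replicate 2, Cfap65 was at -0.20, Stk36 at -0.14 and Cfap221 at -0.11, and without replicate 1 Cfap65 was at -0.88. The direction of Spag6 turned in 6 of 16 alternatives. The median of the list was -0.47. Of the 10 genes, 5 were on the promoter-peak list, both called genes among them, against 6.1% of all genes tested. Promoter windows were searched for Spag6, Cfap47, Cfap70, Cfap221, Stk36, Kif9, Mycbpap and Adgb. The inverted repeat was present in Cfap70, which was called lower, and in Kif9 and Mycbpap, which were not. In Cfap70 it was centred 5 bases before the start site. The single arm was present in Adgb, which was called lower, and in Spag6, Stk36 and Kif9, which were not.

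The radial spoke and the nexin-dynein regulatory complex, which are other parts of the axoneme, were counted in the same way. Of 15 radial spoke genes listed, 14 were tested and 5 were called lower in edgeR, against 3.68% of all genes tested. Rsph9 was lowest (log2 fold change -5.69), Cfap251 highest (0.90), and the median was -0.48. Without Rfx2-/- replicate 2 these values were -5.70, 1.10 and -0.54, and Cfap251 was then called higher (edgeR adjusted p 2.21e-05). Of 11 nexin-dynein genes listed, 10 were tested and 4 were called lower, again against 3.68% of all genes tested. Drc1 was lowest (-6.19) and the median was -0.67, or -6.05 and -0.56 without Rfx2-/- replicate 2. The difference between these lists and the central apparatus genes was not tested.

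**Figure D5:**
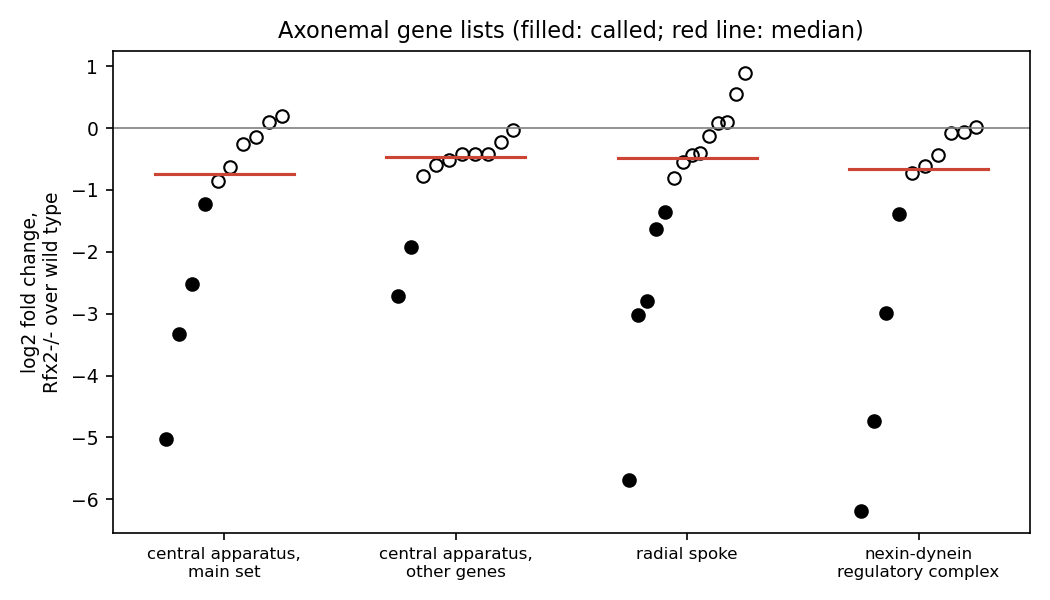
Log2 fold change of each tested gene in the central apparatus set described above, in the other central apparatus genes, in the radial spoke and in the nexin-dynein regulatory complex, with called genes filled and the median of each list as a red line. The medians are -0.74, -0.47, -0.48 and -0.67.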

How the data were processed

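Testis RNA was sequenced from 5 wild type and 4 Rfx2-/- mice. The deposited table holds raw counts per gene. According to their methods and the submitters' processing notes (CASAVA 1.8.2, STAR 2.4, featureCounts 1.4.6), the authors made TruSeq libraries, mapped single reads to GRCm38, discarded reads with several positions, and counted over merged exons, leaving out reads on exons of different genes. Genes with near-identical copies can therefore lose reads. The use of strand was not given in the sources used here. Every column of the table was assigned to a mouse by its animal number.

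Gene names came from GENCODE M21, which held 96.6% of the IDs. Differences were fitted in edgeR 4.0.16 by its quasi-likelihood method (R 4.3.3, robust, TMM, filterByExpr) over 15613 genes, with Benjamini-Hochberg adjustment. Called genes had an adjusted p at or under 0.01 and over 2-fold. Replicates are separate mice. Total counts of 13574764 to 28800855 per library set the precision of low counts, with a floor of 3 counts (0.0996 to 0.234 CPM, counting error only). Within-library ratios of counts were computed without a test. The edgeR fit was also run on simulated counts with set changes. These held no exon-length trend and no library like Rfx2-/- replicate 2, so that run does not bear on either feature. Promoter windows came from RefSeq, and the promoter-peak list from the study's supplement. The named genes were the 10 members, Rfx2 and the other central apparatus genes, of which the result of 1 gene is not reported here. The members and lists were chosen with earlier results of these data known. Alternatives were other scalings, no filter, DESeq2 1.42.0, removal of the length trend, a test against 2-fold (glmTreat) and each library left out. The combined removal of Rfx2-/- replicate 2 and the length trend, the ratios and the medians of the other lists without that library were added after seeing the data.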

Additional observations from a re-analysis of the deposited data

Results flagged for a closer look

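A sample far from the others was looked for in 44 groups (the 10 genes, the other 10 central apparatus genes, Rfx2 and the second Cfap74 row, each in both genotypes) with Dixon's test, where chance alone gives about 2.2. It was met once. Spag6 stood at 186 CPM in Rfx2-/- replicate 4, while the other 3 knockout libraries had 119 to 129 CPM. Spag6 shares 8.39% of its 50-base sequences with Gm20539 on the opposite strand and with its near copy Spag6l. The share in Spag6l, with Spag6 alone, was 0.76%. Spag6l was also highest among the knockout libraries in replicate 4, at 432 CPM, and the part of shared reads was not tested. The low values of Hydin and Cfap74 in Rfx2-/- replicate 2 did not reach the limit for 4 samples.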

How the results depend on the processing

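No paired analysis was possible because the labels give no replicate numbers shared between genotypes. Per the methods some mice may have been littermates, and litter, which the labels do not give, could not be entered. Spef2, Cfap46, Spag17 and Cfap70 kept their direction and their call in the 16 alternatives. The number of central apparatus genes called lower was 3 or 4 throughout, and leaving out each library in turn gave 3 each time. The Cfap54 call was lost with total counts (edgeR adjusted p 0.0159), against 2-fold, without any one of the 9 libraries and with replicate 2 left out and the length trend removed. Against 2-fold (glmTreat), 272 genes were called lower and 29 higher in place of 575 and 129, with 1 of the other central apparatus genes and 3 of the radial spoke genes lower. DESeq2 called 211 genes higher. Total counts moved the median of all genes from 0.03 to 0.16, and that of the 10 genes from -0.74 to -0.62. The cause of these shifts was not tested. The count of other central apparatus genes called lower ranged from 1 to 2 over the libraries left out. Adgb missed the limit without Rfx2-/- replicate 4 (edgeR adjusted p 0.0107) and against 2-fold (glmTreat adjusted p 0.0638). Its lowest adjusted p was 7.34e-08, in DESeq2. The count of radial spoke genes called higher went from 0 in edgeR (1 at an unadjusted p of 0.05, 0 in DESeq2) to 1 with total counts, with the length trend removed, and with replicate 2 left out and the length trend removed, and ranged from 0 to 1 over the libraries left out (1 without Rfx2-/- replicate 2). Cfap69 turned to -0.0079 without Rfx2-/- replicate 2, in a range of -0.0079 to 0.19 over the libraries left out, and to -0.0090 with the length trend also removed. Spag6 turned to 0.10 with total counts, 0.044 without wild type replicate 5, 0.071, 0.026 and 0.039 without Rfx2-/- replicates 1, 2 and 3 (range -0.17 to 0.071 over the libraries left out), and 0.013 with replicate 2 left out and the length trend removed. Rfx2 itself missed the limit against 2-fold (adjusted p 0.0282, range 1.87e-10 to 0.0282). Among the 10 genes, Spef2 had 26 to 91 reads per knockout library.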
